A study of Mus musculus with 8 samples.

Results

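The level of 8 imprinted genes was followed across the nuclei of mouse visceral white adipose tissue: Peg3, Meg3, Mest, Grb10, Plagl1, Rian, Dlk1 and Sgce. They are the rows of the deposited count matrices that carry these 8 symbols, of 56749 genes listed in each matrix. All 8 were listed in all 8 libraries. They were chosen by name, with earlier results of these data known. The tissue had been snap frozen, and its nuclei were released, stained with DAPI, sorted to remove debris and clumps, and sequenced with a droplet method that counts unique molecular identifiers (UMIs) at the 3′ end of transcripts. Each library came from 1 mouse, with 2 mice in each of 4 groups. The mCherry SD mice had the genotype p21+/mCherry and a standard diet. The mCherry HFD mice had the same genotype and a high-fat diet. The Tert HFD mice (p21+/mCherry-Tert) and the TertCi HFD mice (p21+/mCherry-TertCi) were also on a high-fat diet. All 4 groups share a p21 allele that carries mCherry, a red fluorescent protein. In the last 2 groups the p21 promoter also drives Tert, the reverse transcriptase subunit of telomerase, or TertCi, so the transgene can act only where that promoter is active, or through such cells. The labels do not spell out TertCi, and they give no age. No Tert or TertCi mouse on the standard diet was sampled here, so both genotypes are compared with mCherry mice on the high-fat diet only.

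Imprinted genes are expressed mainly from the allele inherited from 1 parent. The choice is set by DNA methylation that differs between egg and sperm at control regions, which often govern several neighbouring genes. Many of these genes act on growth, stem and progenitor cells, and fat storage. Peg3 and Plagl1 encode zinc finger transcription factors that are expressed from the paternal allele. Mest, also paternal, encodes a protein of the alpha/beta hydrolase family whose transcript is known to vary with fat mass expansion in mice. Grb10 encodes an adaptor that binds the insulin receptor and dampens its signal, and outside the brain it is expressed mainly from the maternal allele. Meg3 and Rian are maternally expressed long noncoding RNAs of 1 domain, and Rian hosts small nucleolar RNAs. Dlk1 lies in the same domain, is expressed from the paternal allele, and encodes preadipocyte factor 1, a membrane protein that holds back adipocyte differentiation. Sgce encodes epsilon-sarcoglycan, a membrane protein of the dystrophin-associated complex, and is expressed from the paternal allele. The counts do not tell the alleles apart, so imprinting itself was not measured.

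Promoter windows of 300 bases, from 250 bases before to 50 after a transcription start, are shown for the 6 genes that differed most between adipocytes and progenitors. CpG dinucleotides, the letters that DNA methylation acts on, are in capitals. The sequences are from RefSeq on the build GRCm38.p6. The set of windows used here matched 7 of the 8 genes by symbol, and Sgce was not matched. The first 3 belong to genes that were higher in adipocyte-like nuclei: Peg3 (chr7:6730370-6730669, minus strand), the second annotated start of Mest (chr6:30737800-30738099, plus strand) and Plagl1 (chr10:13090582-13090881, plus strand). The last 3 belong to genes that were higher in progenitor-like nuclei: Meg3 (chr12:109540746-109541045, plus strand), Rian (chr12:109603695-109603994, plus strand) and Grb10 (chr11:12037371-12037670, minus strand).
Peg3: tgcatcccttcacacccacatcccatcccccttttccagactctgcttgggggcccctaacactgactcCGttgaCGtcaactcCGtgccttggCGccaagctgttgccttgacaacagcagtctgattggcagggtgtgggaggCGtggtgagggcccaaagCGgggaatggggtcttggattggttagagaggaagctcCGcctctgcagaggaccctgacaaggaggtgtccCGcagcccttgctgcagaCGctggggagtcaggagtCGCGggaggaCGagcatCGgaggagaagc
Mest: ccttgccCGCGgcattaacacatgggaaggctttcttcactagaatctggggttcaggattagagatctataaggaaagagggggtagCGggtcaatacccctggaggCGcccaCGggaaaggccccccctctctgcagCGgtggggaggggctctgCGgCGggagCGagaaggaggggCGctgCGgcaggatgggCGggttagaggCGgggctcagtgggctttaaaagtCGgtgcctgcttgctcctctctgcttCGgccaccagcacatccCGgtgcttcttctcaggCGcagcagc
Plagl1: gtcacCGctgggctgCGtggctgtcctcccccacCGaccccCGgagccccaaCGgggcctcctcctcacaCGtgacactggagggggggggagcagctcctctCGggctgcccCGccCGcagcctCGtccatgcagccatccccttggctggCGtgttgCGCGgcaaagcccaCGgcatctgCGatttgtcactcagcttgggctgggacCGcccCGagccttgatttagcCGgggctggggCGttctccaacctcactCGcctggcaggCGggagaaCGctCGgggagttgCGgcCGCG
Meg3: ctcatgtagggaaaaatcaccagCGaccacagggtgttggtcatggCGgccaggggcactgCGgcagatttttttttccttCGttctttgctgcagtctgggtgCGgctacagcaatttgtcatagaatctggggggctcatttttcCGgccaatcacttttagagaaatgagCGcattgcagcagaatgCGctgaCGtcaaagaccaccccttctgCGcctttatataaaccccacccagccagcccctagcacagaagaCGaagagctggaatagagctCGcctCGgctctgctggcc
Rian: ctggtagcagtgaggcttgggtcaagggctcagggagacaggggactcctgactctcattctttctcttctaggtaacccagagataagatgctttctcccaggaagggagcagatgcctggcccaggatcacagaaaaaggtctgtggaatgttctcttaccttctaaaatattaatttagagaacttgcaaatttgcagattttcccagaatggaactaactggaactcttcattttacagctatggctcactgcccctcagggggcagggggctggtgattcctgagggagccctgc
Grb10: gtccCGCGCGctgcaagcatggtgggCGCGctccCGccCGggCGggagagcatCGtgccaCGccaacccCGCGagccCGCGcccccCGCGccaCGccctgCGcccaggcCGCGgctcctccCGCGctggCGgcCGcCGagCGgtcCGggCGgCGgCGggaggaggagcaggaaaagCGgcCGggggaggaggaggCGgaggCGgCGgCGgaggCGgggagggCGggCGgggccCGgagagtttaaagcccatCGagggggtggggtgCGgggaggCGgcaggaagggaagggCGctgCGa

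The median promoter in the RefSeq table, over 32851 windows of this length, held 7 CpG dinucleotides, with quartiles of 3 and 20. Grb10 held 45 CpG in the window shown, more than 98.1% of all windows, and Plagl1 held 26. Mest held 17, and Peg3 and Meg3 held 13 each. Rian, the RNA that tracked Meg3 most closely below, held 0 in its window. Of the genes not shown, Dlk1 held 9, and the other annotated starts of Meg3, Mest and Grb10 held 1, 8 and 9 (1 more start of Mest, next to the second, also held 17). Both strands of the 11 windows of these genes were searched for 4 motifs. GCCATNTT, the core of the YY1 motif, is in 6.05% of all windows and was in 0 of the 11. TTGCNNAA, a core that C/EBP factors bind, is in 10.8% of all windows and was in 1, at the first start of Mest. TCCC, then 2 bases of any kind, then GGGA, the EBF core, is in 0.904% of all windows and was in 1, at the start of Grb10 that is not shown. AGGTCA, then 1 base of any kind, then AGGTCA, a direct repeat that PPAR and RXR bind, is in 0.0396% of all windows and was in 0. The 2 matches lie in different windows, so no motif overlapped another, and a match is only a run of letters.

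The libraries held 23378488 to 139749876 UMIs each. After filters, 30223 nuclei remained, 1979 to 7435 per library with medians of 1681 to 7131 UMIs, and any 2 libraries shared at most 0.314% of their barcodes. The nuclei were clustered without the imprinted genes into 30 clusters. Of these, 20 were named from fixed markers, giving among others 5922 adipocyte-like, 5118 progenitor-like, 8284 macrophage-like and 913 endothelial-like nuclei. The other 10 clusters, with 7398 nuclei (12.5 to 50.3% of a library), carried raised markers of a second class, were called mixed and entered no comparison. The mCherry HFD mice stand apart in the adipocyte-like class, with 274 and 102 nuclei against 547 to 1872 in the other 6 mice. Their adipocyte-like nuclei also carried more RNA of progenitor marker genes: 8 such markers summed to 1135 and 2360.0 CPM (UMIs of a gene scaled to a common total of the class in that mouse) there, against 117 to 240 in the other 6 mice, with no marker at 0. The summed level of 8 adipocyte markers was lower in them than in the adipocyte-like nuclei of all 6 other mice.

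Peg3, Mest and Plagl1 were higher in adipocyte-like nuclei, while Meg3, Rian and Grb10 were higher in progenitor-like nuclei. Each of these 6 differences had the same direction in 8 of 8 mice. Levels are in CPM, from the UMIs of a class summed within a mouse. A fit with the mouse as a block called 6 of the 7 genes it could test between progenitor-like and adipocyte-like nuclei, in which 59% of all 16780 genes were called (edgeR quasi-likelihood test, Benjamini-Hochberg adjusted p under 0.05). The gene not called was Sgce, and Dlk1 had too few counts to be tested.

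Peg3 stood at 407 ± 277 (SD, n = 8) CPM in adipocyte-like nuclei and at 36.8 ± 21.2 (SD, n = 8) in progenitor-like nuclei. Within a mouse the adipocyte level was 4.80 to 18.1 times the progenitor level. The progenitor minus adipocyte difference was -3.39 ± 0.11 (SE), adjusted p = 6.17e-15 on the log2 scale by edgeR. Mural-like nuclei, the pericytes and smooth muscle of vessel walls, were next at 65.3 ± 26.5 (SD, n = 6), and their range overlapped that of adipocyte-like nuclei. Mest averaged 122 ± 74.1 (SD, n = 8) CPM in adipocyte-like and 9.18 ± 3.75 (SD, n = 8) in progenitor-like nuclei, a log2 difference of -3.75 ± 0.15 (SE), adjusted p = 1.20e-12 by edgeR. Plagl1 averaged 67.3 ± 26.9 (SD, n = 8) and 5.61 ± 3.4 (SD, n = 8) CPM in the same classes, a log2 difference of -3.79 ± 0.14 (SE), adjusted p = 5.23e-16 by edgeR. Plagl1 was the only one of the 3 whose adipocyte range did not overlap that of the next class, mesothelial-like nuclei at 15.6 ± 6.52 (SD, n = 8).

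Meg3 was highest in progenitor-like nuclei, at 1685 ± 638 (SD, n = 8) CPM, followed by mesothelial-like nuclei, the lining of the fat pad, at 986 ± 252 (SD, n = 8). Mural-like nuclei were next at 394 ± 58.2 (SD, n = 6), and their range lay below the mesothelial range without overlap. Endothelial-like and macrophage-like nuclei held 36.9 ± 15.7 (SD, n = 7) and 32.6 ± 13.1 (SD, n = 8) CPM of Meg3. Rian followed the same order, with 464 ± 167 (SD, n = 8) in progenitor-like, 232 ± 57.5 (SD, n = 8) in mesothelial-like and 135 ± 57.9 (SD, n = 6) in mural-like nuclei, though with overlapping ranges. The progenitor minus adipocyte differences were 4.72 ± 0.35 (SE), adjusted p = 2.47e-04 for Meg3 and 5.04 ± 0.17 (SE), adjusted p = 1.97e-09 for Rian on the log2 scale by edgeR.

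Grb10 averaged 359 ± 69.8 (SD, n = 8) CPM in progenitor-like and 139.8 ± 48.6 (SD, n = 8) in adipocyte-like nuclei, a log2 difference of 1.35 ± 0.09 (SE), adjusted p = 4.14e-10 by edgeR. Mesothelial-like, mural-like and endothelial-like nuclei were at 240.5 ± 84.2 (SD, n = 8), 170.5 ± 57.9 (SD, n = 6) and 118 ± 36.8 (SD, n = 7), and macrophage-like nuclei lay far lower at 17.4 ± 7.99 (SD, n = 8). Sgce averaged 168 ± 15.6 (SD, n = 8) in progenitor-like and 151 ± 42.9 (SD, n = 8) in adipocyte-like nuclei. The progenitor level was higher in 5 of 8 mice, with a log2 difference of 0.14 ± 0.08 (SE), adjusted p = 0.125 by edgeR. Its levels in mural-like and mesothelial-like nuclei overlapped these, and the next class, endothelial-like nuclei at 49.6 ± 20.6 (SD, n = 7), did not overlap the mesothelial range. Dlk1 was near 0 everywhere. It gave 5 UMIs among all progenitor-like, 8 among mesothelial-like and 1 among macrophage-like nuclei, and 0 among adipocyte-like nuclei, which allows at most 0.0662 CPM there (3 counts, counting error only).

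**Figure D1:**
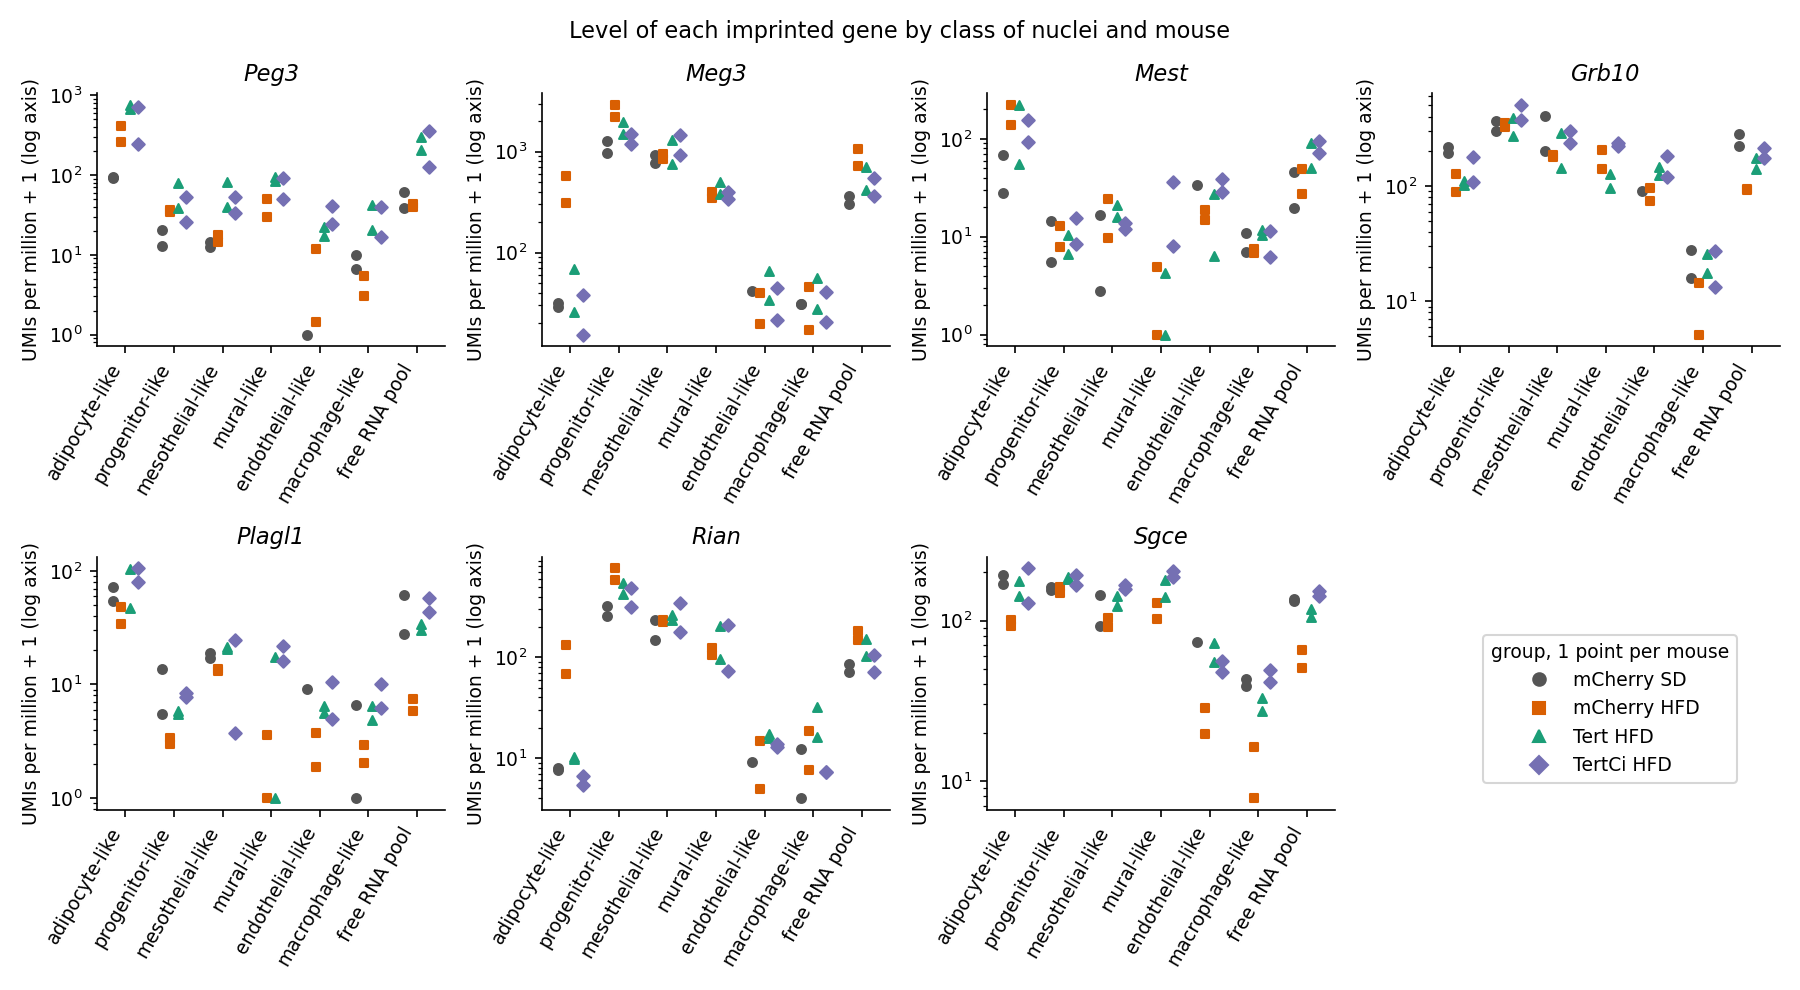
Level of 7 imprinted genes in 6 classes of nuclei and in the pool of near-empty barcodes (free RNA), as CPM plus 1 on a log axis, with 1 point per mouse and class with at least 20 nuclei. Peg3, Mest and Plagl1 are highest in adipocyte-like nuclei, and Meg3 and Rian in progenitor-like and mesothelial-like nuclei.

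RNA floating free of nuclei adds some UMIs of every abundant transcript to every droplet. Barcodes with 1 to 100 UMIs, taken as that free RNA, held 299 to 1057 CPM of Meg3 and 38.2 to 355 of Peg3. The share of nuclei with at least 1 UMI of Meg3, averaged over mice, was 83.4% in progenitor-like nuclei, 21.8% in adipocyte-like nuclei and 10.6% in macrophage-like ones. After each nucleus was thinned to 1000 UMIs these shares were 63.9%, 7.11% and 2.82%. For Peg3 the thinned shares were 26.1% in adipocyte-like nuclei, 3.66% in progenitor-like nuclei and 1.5% in macrophage-like ones (61.7%, 11.7% and 5.69% before thinning). Mest went from 9.43% of adipocyte-like to 0.663% of macrophage-like nuclei after thinning (31.2% and 3.33% before), and Plagl1 from 6.66% to 0.479% (31.7% and 1.62% before). Thinning left out the nuclei below 1000 UMIs, which kept 5918 of 5922 adipocyte-like, 5115 of 5118 progenitor-like and 8259 of 8284 macrophage-like nuclei. How much of the macrophage shares comes from free RNA was not tested.

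The 8 genes did not form 1 pattern. Over 50 sums of a class within a mouse, which share libraries, depth and free RNA, the log2 level of Meg3 followed that of Rian with a Pearson r of 0.976, the highest among 10678 genes. The next genes for Meg3 were Mirg, the microRNA host gene of the same domain (r = 0.962), and Lhfp (r = 0.957). Peg3 was most like Tln2 (0.876), Slc22a3 (0.871) and Ephb2 (0.829), and its r was 0.674 with Plagl1, 0.415 with Mest and 0.176 with Meg3. Mest was most like Mmd (0.783), Gm33699 (0.770) and Gm35552 (0.762), and Plagl1 like Gabrg3 (0.851), Nnat (0.839) and 4931428L18Rik (0.836). Grb10 was most like Tgfbr3 (0.972), Rbfox2 (0.921) and Tshz2 (0.920). Sgce was most like Irs1 (0.927), which encodes an insulin receptor substrate, Hoxc4 (0.907) and Tcaf1 (0.893). These values describe the 50 sums and were not tested.

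In adipocyte-like nuclei, mCherry mice on the high-fat diet had more Peg3, Meg3 and Rian and less Grb10, Sgce and Plagl1 than mCherry mice on the standard diet. The test called 6 of 7 genes, against 26.5% of all 15929 genes tested. Against mCherry HFD mice, Plagl1 and Sgce were higher and Rian lower in Tert HFD mice (3 of 7 called, against 9.57% of all genes). In TertCi HFD mice Plagl1, Sgce and Grb10 were higher and Meg3 and Rian lower (5 of 7, against 23.8%). The directions of Meg3 and Rian turned under some other settings, given with their values below. The median log2 change of the 7 genes in these 3 contrasts was 1.49, 0.36 and 0.94, beside 0.05, -0.03 and -0.04 over all genes. The 3 contrasts share the mCherry HFD mice. Their p-values rest on 1 estimate of the spread shared by all 4 groups, with 2 mice a group. Without TMM scaling the median over all genes moved to 0.44, -0.35 and -0.55, and 87.1, 8.90 and 8.65% of all calls were higher in place of 60.4, 35.6 and 40.5%. There 5, 2 and 4 of the 7 genes were called, against 24.8, 9.17 and 26.8% of all genes, and no call turned its direction. These calls rest on few mCherry HFD nuclei, and the groups filled different adipocyte-like clusters, as given below. With a lower limit for calling clusters mixed, a setting chosen after seeing the data, the mCherry HFD group was 1 mouse with 41 nuclei, and 1, 0 and 0 of the 7 genes were called, against 1.21, 0 and 0.0375% of all genes, so the share of all genes called fell as well. There the diet values were -1.04 (adjusted p = 0.12) for Sgce, -0.24 (adjusted p = 0.75) for Plagl1 and 2.02 (adjusted p = 0.094) for Peg3.

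Grb10 in adipocyte-like nuclei stood at 194 and 215 for mCherry SD, 87.7 and 126 for mCherry HFD, 100.2 and 109.9 for Tert HFD, and 179 and 107 for TertCi HFD. The standard-diet mice were the highest and did not overlap mCherry HFD. Grb10 fell with the high-fat diet by edgeR (-1.35 ± 0.27 (SE), adjusted p = 0.00703, on the log2 scale as below). It was higher in TertCi HFD (0.94 ± 0.27 (SE), adjusted p = 0.0294), though the TertCi HFD mice overlapped mCherry HFD. That call was lost in 5 of 20 alternatives, over which the value was 0.44 to 1.82. For Tert HFD the values were 0.36 ± 0.27 (SE), adjusted p = 0.419. Progenitor markers were raised in the adipocyte-like nuclei of both mCherry HFD mice, as given above, and their part in the Grb10 values was not tested. Without mouse rep128 of the mCherry HFD group the diet difference was -1.09 (adjusted p = 0.079), and the TertCi difference was 0.69 (adjusted p = 0.23). Without mouse rep138 of the TertCi HFD group the latter was 0.61 (adjusted p = 0.17).

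Sgce stood at 191 and 168 for mCherry SD, 91.4 and 100.0 for mCherry HFD, 175 and 141 for Tert HFD, and 211 and 127 for TertCi HFD. Both mCherry HFD mice lay below all 6 others. Sgce fell with the high-fat diet (-1.31 ± 0.23 (SE), adjusted p = 0.00383, edgeR) and was higher in Tert HFD (1.07 ± 0.23 (SE), adjusted p = 0.0236) and TertCi HFD (1.33 ± 0.23 (SE), adjusted p = 0.00384) than in mCherry HFD. Over 20 alternatives, leaving out each mouse among them, these calls were lost in 2, 8 and 2. The TertCi call was lost with the lower limit for mixed clusters and among nuclei without UMIs of another class's markers. The Tert call was lost without mouse rep128 (1.01, adjusted p = 0.14), rep129 (1.17, adjusted p = 0.10) or rep136 (1.08, adjusted p = 0.062), and the diet and TertCi calls were kept without any 1 mouse.

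Plagl1 stood at 53.6 and 71.7 for mCherry SD, 33.4 and 47.4 for mCherry HFD, 104 and 45.8 for Tert HFD, and 104 and 78.4 for TertCi HFD. The mCherry HFD mice were below the standard-diet mice without overlap, and they overlapped Tert HFD. Plagl1 fell with the high-fat diet (-1.07 ± 0.29 (SE), adjusted p = 0.0241, edgeR) and was higher in Tert HFD (1.26 ± 0.29 (SE), adjusted p = 0.0308) and TertCi HFD (1.73 ± 0.29 (SE), adjusted p = 0.00381). Over 20 alternatives, leaving out each mouse among them, these calls were lost in 9, 11 and 3. The diet call was lost without mouse rep144 (-1.23, adjusted p = 0.051), rep146 (-0.95, adjusted p = 0.10) or rep128 (-0.80, adjusted p = 0.21). The Tert call was lost without mouse rep128 (0.98, adjusted p = 0.21), rep129 (1.52, adjusted p = 0.084) or rep134 (0.80, adjusted p = 0.094), and the TertCi call without mouse rep128 (1.46, adjusted p = 0.056).

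**Figure D2:**
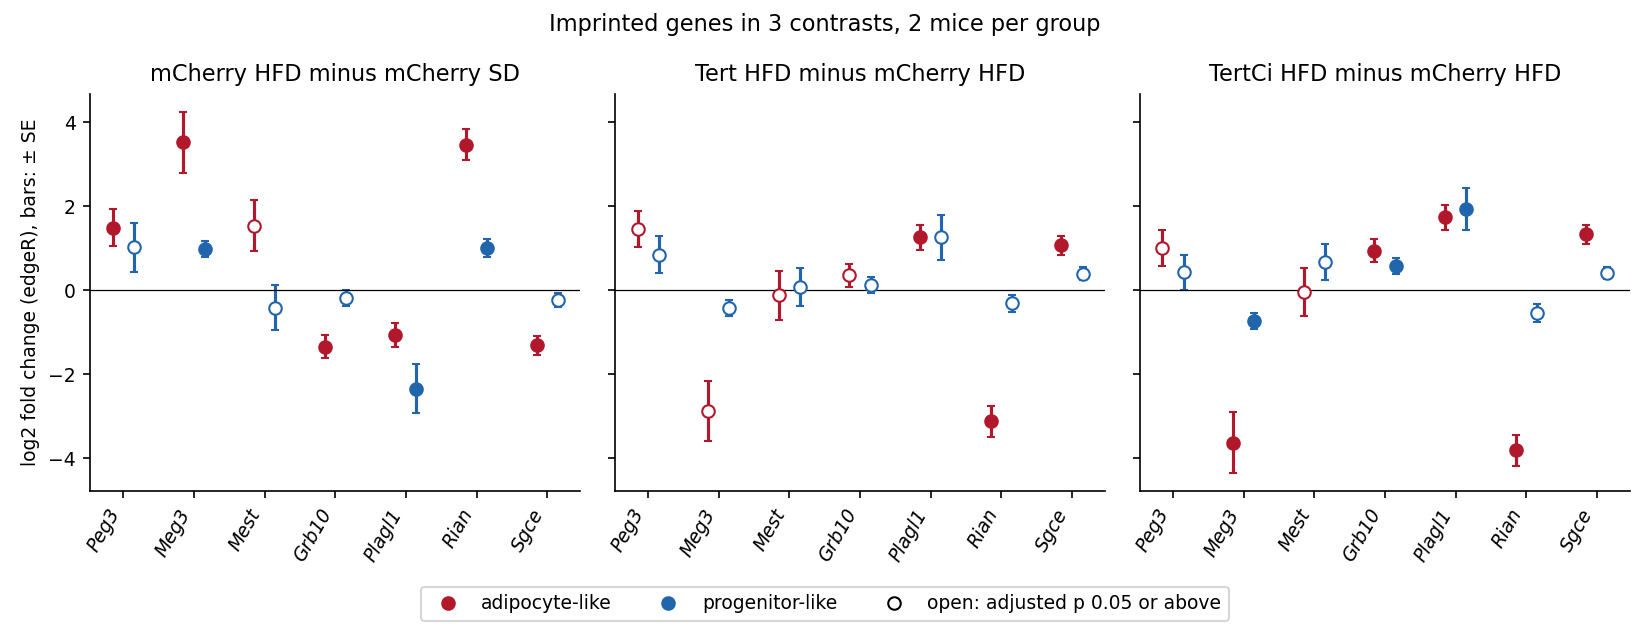
Log2 fold change ± SE (edgeR) of 7 imprinted genes in adipocyte-like and progenitor-like nuclei for 3 contrasts, with filled points for adjusted p under 0.05. In adipocyte-like nuclei Grb10, Plagl1 and Sgce lie below 0 in the diet contrast and above 0 in both genotype contrasts, and Meg3 and Rian lie the other way round.

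Peg3 was lowest on the standard diet. In adipocyte-like nuclei it stood at 93 and 90.4 for mCherry SD, 414 and 259 for mCherry HFD, 678 and 757 for Tert HFD, and 717 and 246 for TertCi HFD. The standard-diet mice lay below all 6 high-fat mice. The diet difference was 1.49 ± 0.45 (SE), adjusted p = 0.0405 by edgeR, and this call was lost in 13 of 20 alternatives. Among these were the fits without any 1 of the 4 mice compared (1.10 to 1.73) and without mouse rep134 or rep136 (1.46 and 1.45). The Tert HFD mice lay above mCherry HFD without overlap, but the difference was not called (1.46 ± 0.44 (SE), adjusted p = 0.0747), nor was that of TertCi HFD (1.00 ± 0.43 (SE), adjusted p = 0.132), whose 2 mice lay on both sides of mCherry HFD. Mest stood at 27.1 and 68.1 for mCherry SD, 221 and 137 for mCherry HFD, 221 and 54.3 for Tert HFD, and 155 and 92.5 for TertCi HFD. Both mCherry HFD mice were above both standard-diet mice, yet the difference did not pass (1.54 ± 0.60 (SE), adjusted p = 0.104), and the genotype values were -0.12 ± 0.58 (SE), adjusted p = 0.922 for Tert and -0.04 ± 0.58 (SE), adjusted p = 0.968 for TertCi.

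The adipocyte-like class is made of 5 clusters, and the groups fill them unequally: cluster 4 was the only one with at least 20 nuclei of mCherry HFD mice, cluster 6 came mostly from Tert mouse rep136, and cluster 16 mostly from TertCi mouse rep138. Within each of the 4 clusters that hold standard-diet mice, these were the lowest for Peg3. In cluster 11 Peg3 stood at 81.2 and 78.7 CPM in the mCherry SD mice, at 554 and 601 in Tert HFD and at 584 and 253 in TertCi HFD. In cluster 15 the values in the same order were 94.1 and 87.7, 382 and 514, and 216 and 115. In cluster 4 the mCherry HFD mice held 405 and 249, against 648 in 1 Tert HFD mouse and 480.5 in 1 TertCi HFD mouse. The comparison of mCherry SD with mCherry HFD mice could not be made within a cluster. Over the same 4 mice of cluster 4, Sgce spanned 88.7 to 123 CPM, Grb10 90.7 to 127.5 and Plagl1 28.9 to 68.3. Sgce averaged 105 in cluster 4 and 117 to 207 in the other adipocyte-like clusters. The Sgce, Grb10 and Plagl1 contrasts of the whole class thus also compare different clusters, and the part of this was not tested.

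**Figure D3:**
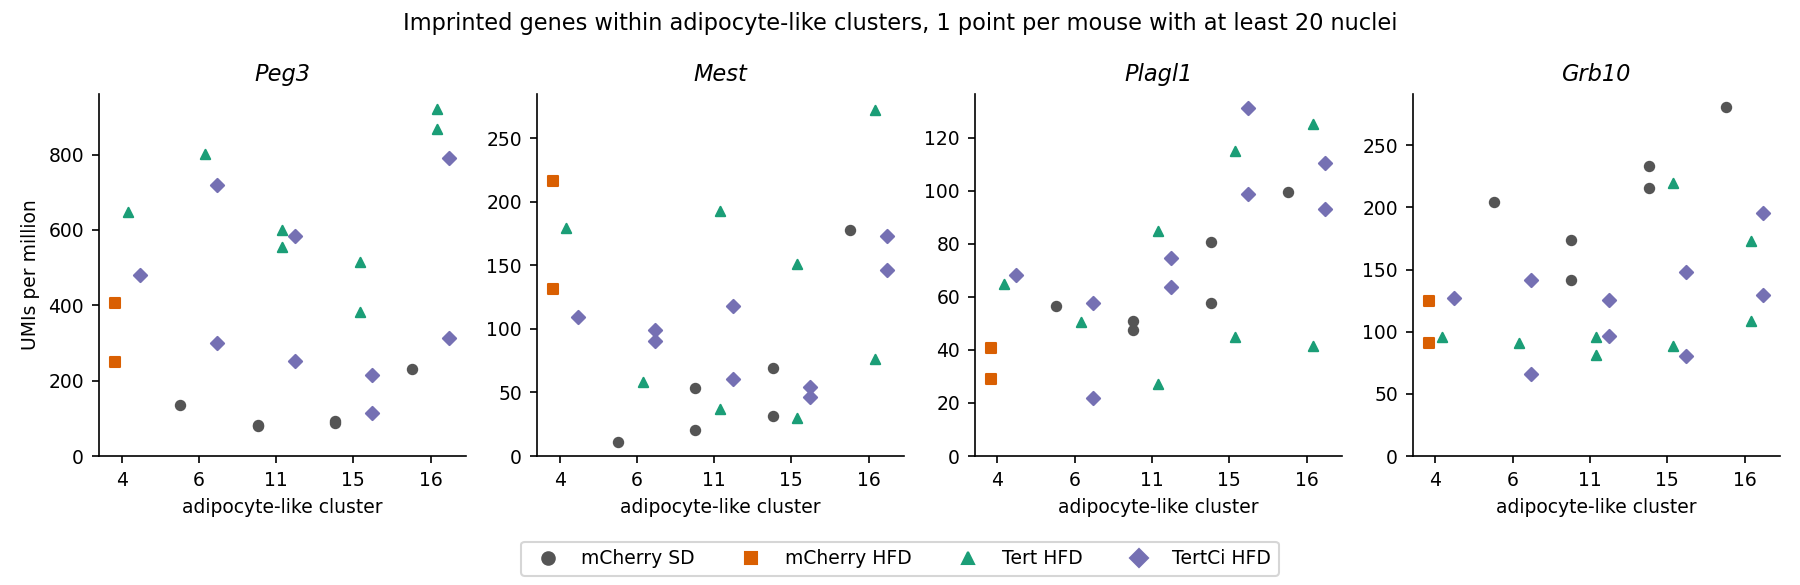
CPM of Peg3, Mest, Plagl1 and Grb10 in the 5 adipocyte-like clusters, with 1 point per mouse that has at least 20 nuclei in the cluster. Peg3 is lowest in the standard-diet mice in each cluster that holds them, and the mCherry HFD mice appear only in cluster 4.

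Meg3 and Rian in adipocyte-like nuclei were highest in the mCherry HFD mice, in which the progenitor markers were also raised. Meg3 stood at 30.4 and 27.6 for mCherry SD, 308 and 568 for mCherry HFD, 24.6 and 67.3 for Tert HFD, and 14.4 and 36.5 for TertCi HFD. Rian stood at 6.62 and 6.89 for mCherry SD, 67.5 and 132 for mCherry HFD, 8.71 and 9.33 for Tert HFD, and 4.42 and 5.57 for TertCi HFD. For both genes the mCherry HFD mice lay above all others. The diet differences were 3.53 ± 0.73 (SE), adjusted p = 0.0149 for Meg3 and 3.46 ± 0.37 (SE), adjusted p = 4.53e-04 for Rian by edgeR. For TertCi they were -3.63 ± 0.73 (SE), adjusted p = 0.0152 and -3.81 ± 0.37 (SE), adjusted p = 7.76e-04, and for Tert -2.88 ± 0.71 (SE), adjusted p = 0.0509 and -3.12 ± 0.37 (SE), adjusted p = 0.00433. Of the progenitor level of the same mouse, the 8 progenitor markers reached 2.26 and 2.77% for mCherry SD, 11 and 24.7% for mCherry HFD, 2.13 and 3.23% for Tert HFD, and 1.65 and 1.44% for TertCi HFD. Meg3 reached 3.16 and 2.16% for mCherry SD, 10.6 and 25.7% for mCherry HFD, 1.25 and 4.53% for Tert HFD, and 1.21 and 2.45% for TertCi HFD. Rian reached 2.56 and 2.14% for mCherry SD, 8.84 and 22.6% for mCherry HFD, 1.59 and 2.2% for Tert HFD, and 1.39 and 1.14% for TertCi HFD. The part of progenitor RNA in these differences was not tested. Among adipocyte-like nuclei with no UMI of 6 progenitor markers, only mCherry HFD mouse rep128 kept at least 20 nuclei (26), and the diet difference of Meg3 was -0.94 (adjusted p = 0.68) there. With the lower limit for calling clusters mixed, the diet differences were -0.0055 (adjusted p = 0.999) for Meg3 and -2.46 (adjusted p = 0.19) for Rian. Genotype values turned as well: with that limit Rian was at 2.68 for Tert and 2.08 for TertCi. With the imprinted genes kept in the clustering Rian was at 0.39 for Tert, and Meg3 at 0.10 for TertCi and -0.23 for diet. Among the nuclei without progenitor markers Meg3 was at 0.75 for TertCi. The Meg3 diet call was also lost without mouse rep144 (3.62, adjusted p = 0.14), rep146 (3.34, adjusted p = 0.11) or rep129 (2.97, adjusted p = 0.064). Its TertCi call was lost without mouse rep144 (-3.58, adjusted p = 0.057), rep129 (-3.07, adjusted p = 0.070), rep138 (-2.98, adjusted p = 0.13) or rep140 (-4.42, adjusted p = 0.069).

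**Figure D4:**
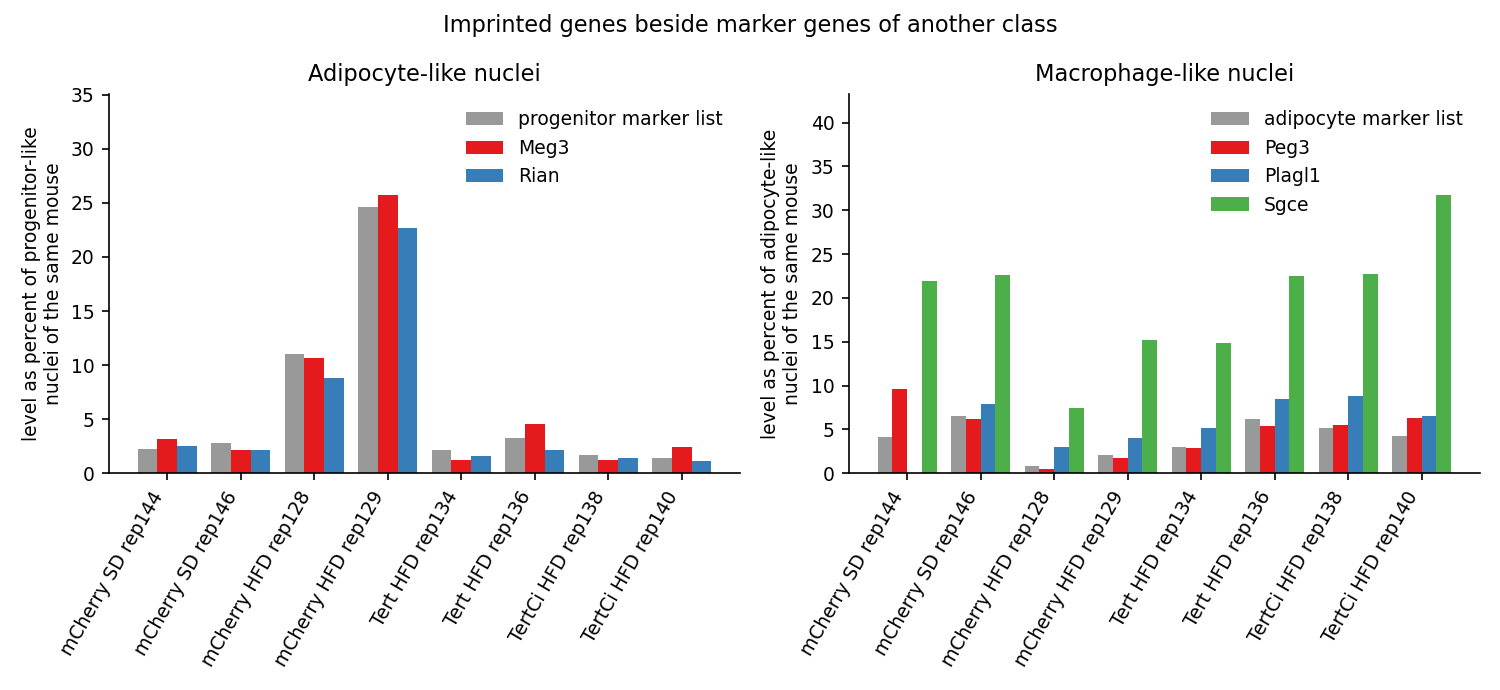
Level of imprinted genes and of marker lists as a percentage of the level in the class they belong to, by mouse: progenitor markers, Meg3 and Rian in adipocyte-like nuclei on the left, and adipocyte markers, Peg3, Plagl1 and Sgce in macrophage-like nuclei on the right. In the 2 mCherry HFD mice on the left all 3 bars stand between 8.84 and 25.7%, and on the right Sgce stands above the marker list in all 8 mice.

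In progenitor-like nuclei the high-fat diet went with more Meg3 and Rian and less Plagl1 in mCherry mice, and 3 of 7 genes were called against 11.9% of 12149 genes. None of the 7 was called for Tert by edgeR, against 10.9% of all genes, and DESeq2 called 0 (against 5.62%). An unadjusted p under 0.05 by edgeR was found for 3 (Meg3, Plagl1 and Sgce), and for 3162 of all 12149 genes. For TertCi 3 of 7 were called, against 19.1%: Meg3 was lower, and Grb10 and Plagl1 were higher than in mCherry HFD. DESeq2 called 2 of 7 for diet, against 7.90% of all genes, where Plagl1 was at -2.28 (adjusted p = 0.0647). For TertCi it called 1, against 10.1%, with Grb10 at 0.57 (adjusted p = 0.0653) and Plagl1 at 1.94 (adjusted p = 0.0937). Among nuclei without UMIs of another class's markers 1 of the 6 tested was called for diet and 1 for TertCi, against 4.65 and 10.7% of 8145 genes. For TertCi Grb10 was there at 0.52 (adjusted p = 0.116) and Meg3 at -0.79 (adjusted p = 0.0522). The median log2 change of the 7 genes was -0.19, 0.12 and 0.42 in the 3 contrasts, beside 0.03, -0.02 and -0.05 over all genes. Without TMM scaling 83.3, 14.8 and 15.9% of all calls were higher in place of 66.1, 27.5 and 33.8%, and the medians over all genes were 0.24, -0.17 and -0.26.

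Meg3 in progenitor-like nuclei stood at 961 and 1277 for mCherry SD, 2902 and 2207 for mCherry HFD, 1962 and 1485 for Tert HFD, and 1187 and 1494 for TertCi HFD. Both mCherry HFD mice were above the 6 others. Meg3 rose with the diet (0.99 ± 0.19 (SE), adjusted p = 0.00656, edgeR) and was lower in TertCi HFD (-0.73 ± 0.19 (SE), adjusted p = 0.0179), with -0.42 ± 0.19 (SE), adjusted p = 0.184 for Tert. Rian stood at 259 and 322 for mCherry SD, 763 and 581 for mCherry HFD, 548 and 424 for Tert HFD, and 319 and 491 for TertCi HFD, again with both mCherry HFD mice above all others, and rose with the diet (1.01 ± 0.22 (SE), adjusted p = 0.0127, edgeR). Its genotype values were -0.32 ± 0.21 (SE), adjusted p = 0.378 for Tert and -0.53 ± 0.21 (SE), adjusted p = 0.0988 for TertCi. The diet calls were lost without mouse rep144 (0.84, adjusted p = 0.072, for Meg3 and 0.90, adjusted p = 0.12, for Rian) or rep128 (0.78, adjusted p = 0.084, and 0.79, adjusted p = 0.12), and that of Rian also without mouse rep146 (1.08, adjusted p = 0.091). The TertCi call of Meg3 was lost without mouse rep128 (-0.51, adjusted p = 0.24) or rep138 (-0.52, adjusted p = 0.18).

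These progenitor nuclei fell into 7 subclusters, and the groups held different ones. Of the mCherry HFD nuclei, 612 were in subcluster 5, which was high in Dpp4, Pi16 and Sema3c, and 902 in subcluster 6, which was low in them, while mCherry SD mice had 2 and 0 nuclei there. Subclusters 0 and 4 were high in Dpp4 too, and held 123 and 9 mCherry SD nuclei. Tert HFD mouse rep134 held at least 20 nuclei of each subcluster, and within this mouse Meg3 was 2605 CPM in subcluster 5, 2404 in subcluster 0, 1926 in subcluster 6 and 1416 to 1853 in the other 4. In subcluster 2, the only one with at least 20 nuclei of every mouse, Meg3 was 855 and 1921 in mCherry SD and 1977 and 1210 in mCherry HFD mice, which overlap.

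Plagl1 in progenitor-like nuclei was low, at 4.47 and 12.6 for mCherry SD, 1.96 and 2.38 for mCherry HFD, 4.49 and 4.81 for Tert HFD, and 6.78 and 7.38 for TertCi HFD. The whole class held 118 UMIs of Plagl1 over all mice, so the level of a single mouse rests on few counts. Both mCherry HFD mice lay below all others, a gap that was not set against counting error. Plagl1 fell with the diet (-2.35 ± 0.58 (SE), adjusted p = 0.0211, edgeR) and was higher in TertCi HFD (1.94 ± 0.50 (SE), adjusted p = 0.0167), with 1.26 ± 0.54 (SE), adjusted p = 0.156 for Tert. The diet call was lost without mouse rep146 (-1.40, adjusted p = 0.41), rep128 (-2.13, adjusted p = 0.19) or rep129 (-2.41, adjusted p = 0.061), and the TertCi call without any 1 of the 4 mice compared (1.74 to 2.06, adjusted p = 0.065 to 0.24). Of the adipocyte level of the same mouse, Plagl1 reached 8.34 and 17.6% for mCherry SD, 5.88 and 5.01% for mCherry HFD, 4.32 and 10.5% for Tert HFD, and 6.51 and 9.41% for TertCi HFD. The adipocyte markers reached 6.68 and 9.4% for mCherry SD, 8.17 and 8.14% for mCherry HFD, 8.51 and 13.2% for Tert HFD, and 9.45 and 11.9% for TertCi HFD. The part of adipocyte RNA in this result was not tested.

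Grb10 in progenitor-like nuclei stood at 365 and 302 for mCherry SD, 326 and 349.8 for mCherry HFD, 388 and 270.4 for Tert HFD, and 503 and 372 for TertCi HFD. The TertCi mice were above both mCherry HFD mice (0.58 ± 0.18 (SE), adjusted p = 0.043, edgeR). That call was lost without mouse rep128 (0.53, adjusted p = 0.24), rep129 (0.64, adjusted p = 0.12) or rep138 (0.39, adjusted p = 0.29). The diet and Tert values were -0.19 ± 0.19 (SE), adjusted p = 0.569 and 0.12 ± 0.18 (SE), adjusted p = 0.735. Sgce stood at 153 and 162 for mCherry SD, 148 and 162 for mCherry HFD, 180.0 and 185 for Tert HFD, and 192 and 165 for TertCi HFD, with a diet value of -0.23 ± 0.16 (SE), adjusted p = 0.365, so a difference was not called here. Peg3 stood at 19.4 and 11.8 for mCherry SD, 35.5 and 33.3 for mCherry HFD, 37.4 and 79.4 for Tert HFD, and 52.7 and 25 for TertCi HFD. All 6 high-fat mice were above the standard-diet mice, without a call (1.02 ± 0.58 (SE), adjusted p = 0.292 for diet). Mest stood at 4.47 and 13.5 for mCherry SD, 6.76 and 11.9 for mCherry HFD, 9.36 and 5.62 for Tert HFD, and 14.5 and 7.38 for TertCi HFD, with overlapping groups. Within a mouse the adipocyte level was 4.80 to 18.1 times the progenitor level for Peg3 and 5.06 to 32.7 times for Mest. Adipocyte markers in progenitor-like nuclei reached 6.68 to 13.2% of their adipocyte level. The part of adipocyte RNA in these Peg3 and Mest levels was not tested.

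The diet response of 4 genes differed between the 2 classes in a test of the difference itself, against 4.45% of 16780 genes. As the progenitor minus the adipocyte diet effect on the log2 scale, Sgce gave 1.01 ± 0.22 (SE), adjusted p = 0.00844, Grb10 1.14 ± 0.26 (SE), adjusted p = 0.0156, Rian -2.44 ± 0.45 (SE), adjusted p = 0.016 and Mest -2.06 ± 0.56 (SE), adjusted p = 0.0489 by edgeR. For Grb10 and Sgce the adipocyte levels of mCherry HFD mice were lower and the progenitor levels were near those on standard diet. Progenitor markers were raised in the adipocyte-like nuclei of mCherry HFD mice, as above, and their part in the 4 values was not tested. The direction of the Rian value turned under 6 other settings: 3.59 with the lower limit for mixed clusters, 1.66 among nuclei without UMIs of another class's markers, 1.45 with the imprinted genes kept in the clustering, 0.43 with the class set per nucleus, 0.22 with mixed clusters named by their best class and 0.0385 at 1000 UMIs in every library. The test was lost for Grb10 without mouse rep146 (0.99, adjusted p = 0.21) or rep128 (0.87, adjusted p = 0.21), and for Sgce without mouse rep144 (0.90, adjusted p = 0.084) or rep128 (0.96, adjusted p = 0.067). It was lost for Rian without mouse rep144 (-2.52, adjusted p = 0.11) or rep146 (-2.22, adjusted p = 0.27). For Mest it was lost without mouse rep144 (-2.09), rep146 (-1.78), rep128 (-1.05) or rep138 (-2.06). Over all 19 alternatives it was lost in 4 for Grb10, 8 for Sgce, 9 for Mest and 2 for Rian, besides the 6 that turned.

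In macrophage-like nuclei Sgce, Peg3 and Plagl1 differed between groups. With the high-fat diet 1 of 7 genes was called in mCherry mice, against 21% of 13301 genes. For Tert 3 of 7 were called, against 17.4%, and for TertCi 3 of 7, against 24%: Peg3, Plagl1 and Sgce, all higher than in mCherry HFD. Grb10, Mest, Meg3 and Rian were called in none of the 3 contrasts there. Median log2 changes were -1.43, 1.48 and 1.59 for the 7 genes, beside 0.10, -0.05 and -0.08 over all genes. Without TMM scaling 68.8, 24.7 and 26.6% of all calls were higher in place of 55.5, 39.2 and 41.2%, with medians of 0.27, -0.19 and -0.26. The groups held different macrophage clusters. The mCherry HFD mice had 1577 and 675 nuclei in cluster 24, 1641 and 507 in cluster 25 and 473 and 212 in cluster 26, where mCherry SD mice had 0, while most macrophage-like nuclei of the other groups were in clusters 17 and 20. No cluster held 20 or more macrophage-like nuclei of mCherry mice on both diets, so the diet values compare different clusters. In cluster 24 Sgce was at 6.10 and 7.62 CPM in the mCherry HFD mice and at 22.9 in Tert mouse rep134, the only other mouse with 20 nuclei there, and Peg3 was at 2.09, 4.04 and 21.5. In cluster 25 Sgce was at 4.29, 15.1 and 20.7 in the same 3 mice, and Peg3 at 1.90, 4.84 and 8.87. In cluster 20, where mCherry HFD mouse rep129 had 22 nuclei, Sgce was at 8.51 and 14.1 in the Tert and 12.4 and 9.60 in the TertCi mice, all below their levels over the whole class. Mouse rep129 had 0 UMIs of Sgce there, which allows up to 52.2 CPM (3 counts), so a difference was not detectable at this depth. Over the whole class Sgce stood at 42 and 38.1 for mCherry SD, 6.8 and 15.2 for mCherry HFD, 26.1 and 31.7 for Tert HFD, and 47.9 and 40.3 for TertCi HFD. Both mCherry HFD mice were lower than the 6 others. Sgce fell with the diet (-2.11 ± 0.43 (SE), adjusted p = 0.00377, edgeR) and was higher in Tert HFD (1.62 ± 0.35 (SE), adjusted p = 0.00747) and TertCi HFD (2.29 ± 0.35 (SE), adjusted p = 6.92e-04). The diet call was lost without mouse rep146 (-2.27, adjusted p = 0.064) and the Tert call without mouse rep128 (1.03, adjusted p = 0.12).

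Peg3 in macrophage-like nuclei stood at 8.99 and 5.64 for mCherry SD, 2 and 4.49 for mCherry HFD, 19.5 and 41 for Tert HFD, and 39.2 and 15.5 for TertCi HFD. The mCherry HFD mice were the lowest, and the Tert and TertCi mice were the highest. The differences were 3.51 ± 0.58 (SE), adjusted p = 0.00332 for Tert and 3.56 ± 0.57 (SE), adjusted p = 0.00208 for TertCi by edgeR, the latter 2.63 (adjusted p = 0.075) without mouse rep138. Plagl1 stood at 0 and 5.64 for mCherry SD, 1.02 and 1.93 for mCherry HFD, 5.43 and 3.87 for Tert HFD, and 9.19 and 5.17 for TertCi HFD, with 2.04 ± 0.59 (SE), adjusted p = 0.0297 for Tert and 2.75 ± 0.58 (SE), adjusted p = 0.00463 for TertCi. Its calls were lost without mouse rep128 (1.42, adjusted p = 0.43, for Tert and 2.11, adjusted p = 0.14, for TertCi), and that of Tert also without mouse rep129 (2.36, adjusted p = 0.088) or rep134 (1.79, adjusted p = 0.30). Macrophage-like nuclei held 120 UMIs of Plagl1 over all mice, so its levels there rest on few counts. Adipocyte markers in these nuclei were lowest in the mCherry HFD mice, at a sum of 115 and 271 CPM. They summed to 1142 to 1578 CPM in mCherry SD and to 582 to 1110 in Tert and TertCi mice. Of the adipocyte-like level of the same mouse, the 8 adipocyte markers reached 4.12 and 6.55% for mCherry SD, 0.854 and 2.04% for mCherry HFD, 2.96 and 6.18% for Tert HFD, and 5.14 and 4.26% for TertCi HFD. Peg3 reached 9.67 and 6.24% for mCherry SD, 0.483 and 1.74% for mCherry HFD, 2.88 and 5.42% for Tert HFD, and 5.47 and 6.29% for TertCi HFD. In the free RNA Peg3 stood at 38.2 and 61.2 for mCherry SD, 42 and 39.3 for mCherry HFD, 203 and 297 for Tert HFD, and 355 and 125 for TertCi HFD, so the Tert and TertCi mice were the highest there too. The part of adipocyte RNA in the Peg3, Plagl1 and Sgce results was not tested. Sgce reached 7.44 to 31.7% of its adipocyte level.

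Endothelial-like nuclei were few, and mCherry SD was represented by 1 mouse (26 nuclei). Only 5 genes could be tested, without Plagl1, Rian and Dlk1. None was called for diet by edgeR, against 3.47% of 7944 genes, and DESeq2 called 0 (against 1.22%). An unadjusted p under 0.05 by edgeR was found for 1 (Sgce), and for 1326 of all genes. For Tert 2 of 5 were called, against 9.63%, and for TertCi 3 of 5, against 16.9%. DESeq2 called 0 of 5 for each genotype, against 1.76% of all genes for Tert and 3.99% for TertCi. At 1000 UMIs in every library 0 of 6 were called, against 1.68 and 6.62%, and at Leiden resolution 2.0 only Grb10 could be tested, without a call, against 0.391 and 1.33%. Sgce stood at 73 for the single usable mCherry SD mouse, 18.7 and 27.3 for mCherry HFD, 71.6 and 54.2 for Tert HFD, and 55.3 and 47.1 for TertCi HFD, lowest in the mCherry HFD mice, with 1.65 ± 0.37 (SE), adjusted p = 0.00783 for Tert and 1.39 ± 0.38 (SE), adjusted p = 0.0154 for TertCi. Endothelial-like nuclei held 75 UMIs of Peg3 over all mice, so its levels rest on few counts. A level of 0 among the 26 mCherry SD nuclei does not show absence. Peg3 stood at 0 for the single usable mCherry SD mouse, 0.434 and 10.9 for mCherry HFD, 21.4 and 16.3 for Tert HFD, and 40.4 and 23.5 for TertCi HFD, with 3.04 ± 0.95 (SE), adjusted p = 0.0496 and 3.89 ± 0.89 (SE), adjusted p = 0.00539. Without mouse rep128 these were 0.85 (adjusted p = 0.78) and 1.70 (adjusted p = 0.34). Without mouse rep129 they were 5.14 and 6.01 (adjusted p = 0.0024 and 1.9e-04), and without mouse rep134 the Tert value was 2.84 (adjusted p = 0.34). Grb10 stood at 89.2 for the single usable mCherry SD mouse, 72.5 and 95.7 for mCherry HFD, 145 and 125 for Tert HFD, and 181 and 118 for TertCi HFD, with 1.03 ± 0.26 (SE), adjusted p = 0.0103 for TertCi. The Sgce calls were lost without mouse rep128 (1.27, adjusted p = 0.35, for Tert and 1.00, adjusted p = 0.40, for TertCi), rep134 (1.47, adjusted p = 0.15, Tert) or rep138 (1.24, adjusted p = 0.21, TertCi). At Leiden resolution 2.0 the Grb10 value turned to -0.62 (adjusted p = 0.568). The Grb10 call was also lost without mouse rep128 (0.77, adjusted p = 0.33) or rep138 (0.63, adjusted p = 0.36). Of the adipocyte-like level, the adipocyte markers reached 2.35 and 4.06% in the mCherry HFD mice and 5.31 to 8.84% in the Tert and TertCi mice. Macrophage markers reached 54.3 to 60.8% of the macrophage-like level in mCherry HFD, 35.1 to 56.3% in Tert HFD and 23.7 to 46.0% in TertCi HFD. Their sums were 2755 to 3032, 2851 to 3534 and 2407 to 3559 CPM in the same order. The part of either marker list was not tested.

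No difference between Tert and TertCi mice was called at any of these genes. By edgeR 0 members were called between them in the 4 classes, and over all genes 0 were called in adipocyte-like, progenitor-like and macrophage-like nuclei and 2 (0.0252%) in endothelial-like nuclei. At an unadjusted p under 0.05 there were 1022, 570 and 470 genes in the first 3 classes, and DESeq2 called 3, 0 and 0. Among the 7 genes Grb10 had such a p in adipocyte-like and progenitor-like nuclei and Rian in macrophage-like nuclei. The Tert minus TertCi value in adipocyte-like nuclei was 0.46 ± 0.43 (SE) for Peg3, and those of the other 6 tested genes lay between -0.59 and 0.75 on the log2 scale. These values do not show that the genotypes act alike.

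Neighbours of these genes on the chromosome were read from a list of 67 other imprinted genes, 66 of them in the files. In the domain of Meg3, Mirg went with Meg3 and Rian in progenitor-like nuclei. Mirg stood at 32.8 and 27.8 for mCherry SD, 104 and 76.6 for mCherry HFD, 80.5 and 60.2 for Tert HFD, and 39.1 and 62.4 for TertCi HFD, and rose with the diet (1.42 ± 0.30 (SE), adjusted p = 0.00974, edgeR). Rtl1, a paternally expressed gene of the domain derived from a retrotransposon, stood at 0 and 2.53 for mCherry SD, 48 and 29.1 for mCherry HFD, 7.11 and 0 for Tert HFD, and 3.49 and 2.27 for TertCi HFD. It was far higher in both mCherry HFD mice than in the others, with a call for diet (adjusted p = 0.0134), Tert (-2.83 ± 0.57 (SE), adjusted p = 0.0127) and TertCi (-3.48 ± 0.60 (SE), adjusted p = 0.0038). The diet calls of Mirg and Rtl1 were each lost in 4 of 20 alternatives, and the genotype calls of Rtl1 in 2 each. Near Peg3, Zim1, a zinc finger gene, stood at 2.71 and 3.37 for mCherry SD, 25.9 and 33.3 for mCherry HFD, 31 and 19.1 for Tert HFD, and 38.9 and 4.01 for TertCi HFD in adipocyte-like nuclei. The high-fat mice were above the standard-diet mice in 6 of 6, and the diet value did not pass (2.84 ± 0.94 (SE), adjusted p = 0.0634). In progenitor-like nuclei Zim1 stood at 0 and 0 for mCherry SD, 7.86 and 4.75 for mCherry HFD, 8.42 and 14.4 for Tert HFD, and 4.65 and 5.11 for TertCi HFD. Its diet difference was called there (adjusted p = 0.023, edgeR), at least 4.57-fold higher in mCherry HFD by a floor of 3 counts over the mCherry SD group. The call was lost without mouse rep144 (adjusted p = 0.086), rep146 (adjusted p = 0.161) or rep128 (adjusted p = 0.12).

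Near Sgce, Ppp1r9a was also lowest in mCherry HFD mice in these 2 classes, adipocyte-like and macrophage-like nuclei. Ppp1r9a encodes neurabin, an actin-binding scaffold. In adipocyte-like nuclei it stood at 502 and 520.2 for mCherry SD, 279 and 248 for mCherry HFD, 409 and 408 for Tert HFD, and 447 and 438 for TertCi HFD. As with Sgce, both mCherry HFD mice lay below all others, with -1.34 ± 0.18 (SE), adjusted p = 0.00115 for diet, 0.99 ± 0.18 (SE), adjusted p = 0.0147 for Tert and 1.25 ± 0.18 (SE), adjusted p = 0.00206 for TertCi (edgeR). In macrophage-like nuclei the 3 log2 values were -1.67, 1.35 and 1.68, all called. There the groups held different clusters and adipocyte markers were lowest in the mCherry HFD mice, as given above, and their part was not tested. In adipocyte-like nuclei without UMIs of another class's markers the Ppp1r9a diet value was -0.52 and was not called. Over 20 alternatives the adipocyte-like calls of Ppp1r9a were lost in 2 for diet, 9 for Tert and 2 for TertCi. The Tert value there was 0.14 to 1.19. In endothelial-like nuclei, with 1 mCherry SD mouse, the Ppp1r9a diet value was -1.81. Asb4, also from the list near Sgce, went the other way: it rose with the diet in macrophage-like nuclei (1.68 ± 0.56 (SE), adjusted p = 0.0474, edgeR), with 1.20 ± 0.47 (SE), adjusted p = 0.0801 in adipocyte-like nuclei. Pon3 was higher for TertCi in adipocyte-like nuclei (0.71 ± 0.21 (SE), adjusted p = 0.0326) and lower for TertCi in endothelial-like nuclei (-1.26 ± 0.43 (SE), adjusted p = 0.0481), the latter not called without any 1 of the mice rep146, rep128, rep129 and rep138. Casd1, which shares the neighbourhood, was called in none of these 3 contrasts in either class (adipocyte diet value -0.34 ± 0.18 (SE), adjusted p = 0.193). Tfpi2, also near Sgce, was called in progenitor-like nuclei for diet (2.36, adjusted p = 0.0499) and TertCi (-2.61, adjusted p = 0.00485) by edgeR. Its Tert value there was -1.14 (adjusted p = 0.128), and Sgce was not called in that class. Copg2 lies on the opposite strand and overlaps Mest, so reads of the 2 genes can be mixed if strand was not used, which is not given in the sources used here. Copg2 fell with the diet in adipocyte-like nuclei (-0.77 ± 0.17 (SE), adjusted p = 0.00999, edgeR), where the Mest value was positive. Copg2 was higher there for Tert (0.68 ± 0.17 (SE), adjusted p = 0.0355) and TertCi (0.79 ± 0.17 (SE), adjusted p = 0.0095). For TertCi it was also called higher in progenitor-like (0.55 ± 0.17 (SE), adjusted p = 0.0416) and macrophage-like nuclei (0.45 ± 0.16 (SE), adjusted p = 0.0499). Near Plagl1, Phactr2 in macrophage-like nuclei fell with the diet (-1.23, adjusted p = 1.62e-04, edgeR). It was higher there for Tert (0.93, adjusted p = 0.00168) and TertCi (1.26, adjusted p = 1.69e-04), with the limits given for Ppp1r9a. Phactr2 was not called in adipocyte-like or progenitor-like nuclei.

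Across the rest of the list, 41 genes were tested in adipocyte-like nuclei: 7 were higher and 6 lower with the diet in mCherry mice, 3 and 4 in Tert, and 10 and 4 in TertCi. In progenitor-like nuclei 33 were tested, with 6 and 3 for diet, 1 and 2 for Tert, and 3 and 4 for TertCi. In macrophage-like nuclei, of 35, the counts were 4 and 3, 6 and 5, and 5 and 5. In endothelial-like nuclei, of 27, they were 2 and 2, 1 and 2, and 1 and 3. Between classes 35 of 46 were called, 14 higher in progenitor-like and 21 in adipocyte-like nuclei. The shares of all genes called in these contrasts are those given above.

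Within that list Igf2r had the smallest adjusted p or the next to it in every class for diet. Igf2r, the maternally expressed receptor that carries lysosomal enzymes and clears insulin-like growth factor 2, stood at 15 and 12.7 for mCherry SD, 623 and 523 for mCherry HFD, 98.3 and 56.5 for Tert HFD, and 58.6 and 49.6 for TertCi HFD in macrophage-like nuclei. In adipocyte-like nuclei it stood at 26.8 and 21.2 for mCherry SD, 277 and 309 for mCherry HFD, 41.4 and 20.3 for Tert HFD, and 37.5 and 18.5 for TertCi HFD. The mCherry HFD mice were far above the other 6 in both classes. The diet differences were 5.26 ± 0.29 (SE), adjusted p = 3.18e-07 and 3.23 ± 0.34 (SE), adjusted p = 5.37e-04 in these classes, and 2.47 ± 0.21 (SE), adjusted p = 8.57e-05 in progenitor-like nuclei by edgeR. Airn, the paternally expressed noncoding RNA that runs antisense through Igf2r, stood at 137.9 and 164 for mCherry SD, 1940.0 and 1739 for mCherry HFD, 736 and 859.8 for Tert HFD, and 684 and 658 for TertCi HFD in macrophage-like nuclei, with a diet difference of 3.43 ± 0.19 (SE), adjusted p = 3.18e-07. The 2 genes overlap on opposite strands, so their reads can be mixed in the same way as those of Mest and Copg2. Igf2r was raised in the free RNA as well, at 43.5 and 62.5 for mCherry SD, 640.3 and 818 for mCherry HFD, 132 and 65.9 for Tert HFD, and 86.6 and 54.9 for TertCi HFD, and its part in the classes was not tested.

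**Figure D5:**
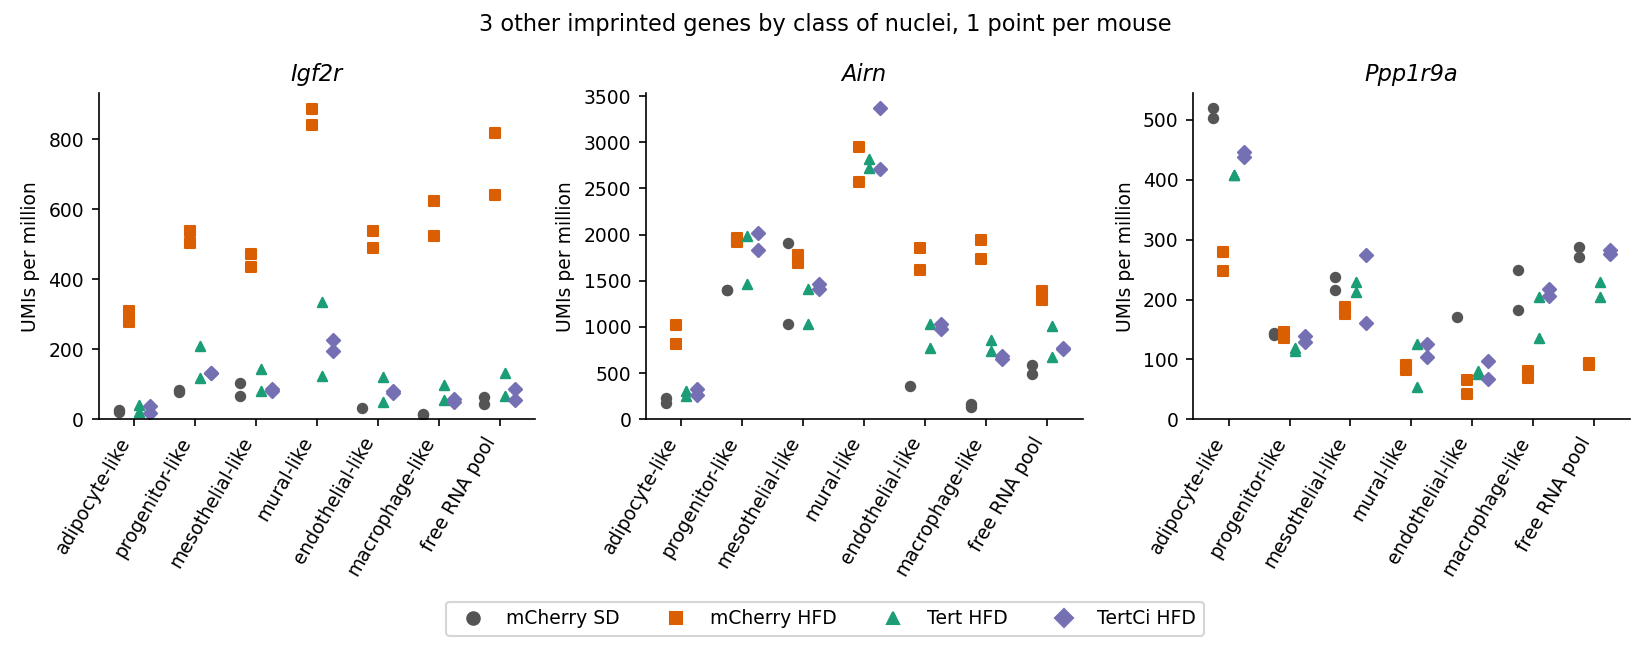
CPM of Igf2r, Airn and Ppp1r9a by class of nuclei and in the free RNA pool, with 1 point per mouse. Igf2r is higher in the 2 mCherry HFD mice than in any other mouse in all 6 classes, and Ppp1r9a in adipocyte-like and macrophage-like nuclei is lowest in them.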

How the data were processed

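The deposited matrices hold raw UMI counts per gene and barcode for 8 libraries, and per the file headers the authors made them with Cell Ranger 7.1.0. The submitters' processing notes name Cell Ranger 5.0.1, bcl2fastq 2.20.0 and mm39. The gene annotation and the treatment of introns and strand are not given in the sources used here. The labels say that mice were processed in batches of 2 in a randomised order; which mice shared a batch is not recorded, so batch and group cannot be told apart. The series' design text speaks of stromal cells and p21+/- mice, whereas the sample labels, followed here, give whole tissue and p21+/mCherry.

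Per library, barcodes above a UMI threshold (986 to 4704) were kept if they held 300 or more genes and no more than 5% of UMIs from mitochondrial genes. Automatic doublet calling marked at most 0.149%, so the highest doublet scores were removed at 0.8% per 1000 nuclei (1.59 to 6.35% of a library). Clustering (scanpy 1.11.5, Python 3.11.15) used 2000 variable genes without the imprinted genes, 30 principal components, 15 neighbours and Leiden resolution 1.0. Clusters were named from marker lists; one whose second class score passed 0.6 of its best was called mixed, and this limit, a naming exception and the doublet share were set after seeing the clusters. Counts were summed per mouse and class with at least 20 nuclei and tested with edgeR 4.0.16 (quasi-likelihood, TMM, group means, Benjamini-Hochberg, 0.05; R 4.3.3, limma 3.58.1), with DESeq2 1.42.0 as an alternative. Levels, shares and likeness used numpy 2.4.6 and scipy 1.17.1, and likeness used log2 of CPM plus 1.

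On simulated counts with 200 changed genes, a log2 change of 1 was recovered in 10.5% (adipocyte-like, 15929 genes), 22% (progenitor-like, 12149), 3.37% (endothelial-like, 7944) and 16.2% (macrophage-like, 13301), and a change of 2 in 60, 81, 29.7 and 60%. The real diet contrast in adipocyte-like nuclei called 4226 genes, and the adjusted p depends on how many genes change. The recovered shares therefore describe the simulation and not what the tests here could find. The members and lists were chosen with earlier results of these data known. The text names all 8 members, the 3 genes most like each, and at most 6 other imprinted genes per class and contrast, by smallest adjusted p. Asb4, Casd1 and Copg2, Zim1 and Pon3 in adipocyte-like nuclei, Phactr2 outside macrophage-like nuclei, and Tfpi2 for diet and Tert fall outside this rule. They were chosen after their values were seen. Alternatives were other normalization, filters, clustering, naming, depth, and leaving out each mouse. Intervals and floors cover counting error only.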

Additional observations from a re-analysis of the deposited data

Results flagged for a closer look

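The diet effect of 4 genes differed between progenitor-like and adipocyte-like nuclei by edgeR, in a test of the difference itself (4 of 7 tested members, against 4.45% of 16780 genes). Each of the 4 calls was lost without 1 of the mice, among them rep144 for Mest, Rian and Sgce and rep146 for Grb10. As the progenitor minus the adipocyte effect on the log2 scale, the value was 1.144 for Grb10 (adjusted p = 0.0156) and 1.006 for Sgce (adjusted p = 0.00844). It was -2.06 for Mest (adjusted p = 0.0489) and -2.435 for Rian (adjusted p = 0.016), whose direction turned under 6 other settings (0.0385 to 3.59). Progenitor markers were raised in the adipocyte-like nuclei of both mCherry HFD mice, and their part in the 4 values was not tested.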

How the results depend on the processing

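The 6 differences between progenitor-like and adipocyte-like nuclei kept their direction and their call under all 19 alternatives that gave a value. The counts of members called in the contrasts of diet and genotype moved more, and so did the share of all genes called, given after each count as "against". With 1000 UMIs as the threshold in every library, 2, 0 and 3 members were called in adipocyte-like nuclei for diet, Tert and TertCi (against 14.9, 0.0054 and 8.09%), 1 in progenitor-like nuclei for Tert (9.62%), 0 and 0 in endothelial-like nuclei for Tert and TertCi (1.68 and 6.62%), and 3 in macrophage-like nuclei for diet (33.2%). DESeq2 called 5 in adipocyte-like nuclei for Tert (against 8.54%), 1 in progenitor-like nuclei for TertCi (10.1%), 0 and 0 in endothelial-like nuclei for Tert and TertCi (1.76 and 3.99%), and 2 for the difference of diet effects (3.28%). At Leiden resolution 2.0 the endothelial-like counts were 0 and 0 (against 0.391 and 1.33%), without TMM 1 for Tert (8.65%), and without doublet removal the adipocyte-like count for Tert was 5 (12.2%). Naming each nucleus by its own class gave 1 and 3 in adipocyte-like nuclei for Tert and TertCi (against 2.22 and 17.2%), 1 in progenitor-like nuclei for Tert (14.1%), 4, 5 and 5 in endothelial-like nuclei (25.8, 16.5 and 29%), 3 in macrophage-like nuclei for diet (25.5%), and 1 for the difference of diet effects (1.65%). With the imprinted genes kept in the clustering the adipocyte-like counts were 3, 1 and 3 (against 21.5, 3.48 and 14.8%), and the endothelial-like count for Tert was 1 (9.28%). Without a filter on low counts they were 1 in progenitor-like nuclei for Tert (against 6.95%) and 2 in macrophage-like nuclei for diet (9.49%). 3 alternatives were chosen after seeing the data. The lower limit for mixed clusters gave 1, 0 and 0 in adipocyte-like nuclei (against 1.21, 0 and 0.0375%). Naming mixed clusters by their best class gave 2, 0 and 3 there (against 21.7, 1.16 and 14.9%), 1 in progenitor-like nuclei for Tert (16.7%), 1 in endothelial-like nuclei for diet (9.79%), and 1 for the difference of diet effects (1.80%). Nuclei without markers of another class gave 1, 0 and 0 in adipocyte-like nuclei (against 5.41, 0.048 and 0.855%), 1 and 1 in progenitor-like nuclei for diet and TertCi (4.65 and 10.7%), and 1 for the difference of diet effects (1.77%).

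Single genes that turned their direction did so mostly in adipocyte-like nuclei. Under the lower limit for mixed clusters Airn was 0.65 for Tert, 0.96 for TertCi and -0.34 for diet, Rian 2.68, 2.08 and -2.46, Meg3 -0.0055 for diet, and Rian 3.59 for the difference of diet effects. With the imprinted genes kept in the clustering Rian was 0.39 for Tert, Meg3 0.10 for TertCi and -0.23 for diet, and Rian 1.45 for the difference of diet effects. In nuclei without markers of another class Meg3 was 0.75 for TertCi and -0.94 for diet, and Rian 1.66 for the difference of diet effects. That value for Rian was 0.43 with a class per nucleus, 0.0385 with 1000 UMIs in every library and 0.22 with mixed clusters named by their best class. Grb10 was -0.62 for TertCi in endothelial-like nuclei at Leiden resolution 2.0. With a class per nucleus Pon3 was 0.11 for TertCi in endothelial-like nuclei and Meg3 -1.15 for TertCi in macrophage-like nuclei. The cause was not tested.

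Leaving out 1 mouse at a time, with the lone mouse of a group assumed to vary like the other groups, gave 3 to 6, 1 to 4 and 3 to 5 members called in adipocyte-like nuclei for diet, Tert and TertCi, against 7.14 to 29.5, 0.567 to 11.2 and 6.71 to 26.1% of all genes in the same fits. The ranges were 0 to 3, 0 to 1 and 0 to 4 in progenitor-like nuclei (against 2.83 to 15.1, 1.46 to 12.9 and 4.86 to 24.1%), 0 to 0, 0 to 3 and 0 to 3 in endothelial-like nuclei (1.24 to 4.71, 0.865 to 11.9 and 2.86 to 19.3%), and 0 to 2, 1 to 4 and 1 to 4 in macrophage-like nuclei (6.88 to 27.8, 6.07 to 18.4 and 6.10 to 30.4%). Between classes they were 6 to 7 (46.4 to 54.7%), and 1 to 5 for the difference of diet effects (1.42 to 6.58%). No paired analysis was possible because the groups share no replicate numbers. Thinned to 1000 UMIs, the share of nuclei with a UMI in adipocyte-like and progenitor-like nuclei was 26.1 and 3.66% for Peg3, 7.11 and 63.9% for Meg3, 9.43 and 0.948% for Mest, 12.0 and 27.7% for Grb10, 6.66 and 0.684% for Plagl1, 13.9 and 14.2% for Sgce, and 29.5% for Rian in progenitor-like nuclei. Precision is limited by 2 mice a group and, in adipocyte-like nuclei, by the few nuclei of the mCherry HFD mice.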

Other observations

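Among the other imprinted genes, Slc22a3, an organic cation transporter beside Igf2r, had the largest fall from adipocyte-like to progenitor-like nuclei of those named (-5.18 ± 0.11 (SE), adjusted p = 1.98e-19 on the log2 scale, edgeR). In progenitor-like nuclei Slc22a3 fell with the diet (-2.26 ± 0.56 (SE), adjusted p = 0.0211) and was higher in Tert HFD (2.54 ± 0.45 (SE), adjusted p = 0.00454) and TertCi HFD (2.51 ± 0.45 (SE), adjusted p = 0.00237) than in mCherry HFD. All 3 calls were lost without mouse rep128 (-1.42, adjusted p = 0.287, for diet, 1.71, adjusted p = 0.185, for Tert and 1.68, adjusted p = 0.127, for TertCi). Slc22a3 stood at 182.0 to 257.7 CPM in adipocyte-like and 1.53 to 10.9 in progenitor-like nuclei. The adipocyte markers in progenitor-like nuclei summed to 1081 and 1104 CPM for mCherry HFD and to 1674 to 2264 in the other 6 mice, and their part in the Slc22a3 values was not tested. Nnat, neuronatin, a small membrane protein, was higher in the endothelial-like nuclei of Tert HFD (1.73 ± 0.37 (SE), adjusted p = 0.0057) and TertCi HFD (2.12 ± 0.35 (SE), adjusted p = 4.61e-04) than of mCherry HFD. Without mouse rep128 the Tert value was 1.85 (adjusted p = 0.178), and without mouse rep138 the TertCi value was 1.41 (adjusted p = 0.0965). In adipocyte-like nuclei Nnat stood at 898 to 2136 CPM. Kcnq1ot1, a paternally expressed noncoding RNA, was higher in TertCi HFD in adipocyte-like nuclei (1.22 ± 0.20 (SE), adjusted p = 0.00332). Adipocyte markers were higher in the endothelial-like nuclei of Tert and TertCi mice than of mCherry HFD mice, as given above, and their part in the Nnat values was not tested.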
